A study of Mus musculus with 18 samples.

Results

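The 41 genes described here act in meiosis or in late germ cells. They were taken as a list of symbols that covers the synaptonemal complex, meiotic cohesin, recombination, telomere attachment and regulators of germ cell identity. No cut on measured values was applied, but the list was chosen with earlier results of these data known. All 41 were found among the 25239 genes of the count table, and 40 passed the filter on low counts (edgeR's filterByExpr), while Spo11, the enzyme that cuts DNA to start meiotic recombination, had too few counts to be tested. RNA-seq was performed on 18 libraries of mouse E14Tg2a embryonic stem cell derivatives, 2 for each of 9 conditions, to ask how loss of the TET enzymes changes the response to signals that induce primordial germ cell-like cells (PGCLCs). Wild-type cells and a line without the open reading frames of Tet1, Tet2 and Tet3 (TKO) were made into epiblast-like cells (EpiLCs) by 44 h in Activin A and Fgf and then grown as floating aggregates in GK15 medium. Cytokines (BMP4, BMP8a, SCF, LIF and EGF) were added or left out. The conditions were EpiLCs of both genotypes, aggregates without cytokines at days 2 and 6 of both genotypes, wild-type cells with cytokines at day 6, and TKO aggregates with cytokines at days 2 and 6. Per the study's methods the TKO cells came from 1 clone (C15), and wild-type cells grown with cytokines had been sorted by SSEA1 and CD61, although their labels call them aggregates. They are called wild-type PGCLCs below, and each comparison with them also compares sorted with whole populations. Wild-type cells with cytokines at day 2 and embryonic stem cells were not analysed here. Nothing in the labels states that the 2 libraries of a condition came from separate cultures, so the spread behind the p-values is one between libraries. That spread was estimated over all 9 conditions together, not for the conditions of a comparison alone, although it was unequal. At day 6 without cytokines the mean chi-square per gene between the 2 libraries was 166.4 in wild-type and 13.02 in TKO aggregates. P-values of comparisons with these wild-type aggregates therefore rest partly on conditions with less spread. This chi-square also grows with depth, so it is not a measure of spread alone. Total counts were 33893720 and 13195593 in these wild-type libraries and 12063489 and 11286050 in the TKO ones.

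Meiosis is the division by which germ cells halve their chromosome number. Homologous chromosomes are cut, paired by strand exchange and zipped together by the synaptonemal complex on an axis of meiotic cohesin and HORMA domain proteins. In the mouse embryo, germ cells enter meiosis or mitotic arrest only after they reach the gonad, under factors such as DAZL and STRA8. In other cells many of these genes are kept silent by DNA methylation of their promoters and by the repressor complex PRC1.6, whose subunits MGA, MAX and E2F6 bind the E-box and E2F sites. TET enzymes oxidise 5-methylcytosine, the first step of one route of its removal.

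Total counts lay between 11286050 and 41257861 per library, of which 16.2% to 47.6% fell on Rn45s, a ribosomal RNA locus. This share went with condition, at 16.2% to 20.9% in TKO aggregates without and 31.7% to 37.3% with cytokines. In wild-type EpiLCs it was 47.6% and 40.7%. Levels are given as normalised counts (counts divided by DESeq2 size factors), for replicate 1 and then replicate 2. A count of 0 allows up to 3 counts, which corresponds to 1.36 to 5.04 normalised counts depending on the library and covers counting error only. Log2 fold changes, their standard errors (SE) and p-values adjusted by Benjamini-Hochberg over 16582 genes were computed with the quasi-likelihood test of edgeR, and a gene is said to be called where its adjusted p was below 0.05. The summed level of Tet1, Tet2 and Tet3, the deleted genes, was 899.8 and 1228 in TKO EpiLCs against 7234 and 7180 in wild-type EpiLCs, and over all conditions its highest TKO library (2457) was below its lowest wild-type library (3919). Gene by gene the reduction was uneven, with Tet1 and Tet3 called lower in TKO EpiLCs, Tet3 alone at day 2 and Tet2 and Tet3 at day 6 without cytokines, and all 3 at day 6 with cytokines. Tet1 had 1304 and 595 in wild-type and 998 and 737 in TKO aggregates at day 6 without cytokines, and the table does not show which reads fell on the excised part. Because whole populations were lysed, fewer expressing cells and less RNA per cell cannot be told apart.

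Most members were already transcribed before germ cell induction. Their levels summed to 6999 and 6881 normalised counts in wild-type EpiLCs and to 8770 and 12874 in TKO EpiLCs. Wild-type aggregates without cytokines fell to 1986 and 1837 at day 2 and 1621 and 1194 at day 6, whereas wild-type PGCLCs had 10505 and 10619. In TKO aggregates without cytokines the sum was 7853 and 7444 on day 2, then 9698 and 9872 on day 6. Adding cytokines gave sums of 7758 and 9711 on day 2, then 11723 and 14706 on day 6. Thus the wild-type aggregates without cytokines lay below every other condition, and the TKO aggregates overlapped the range of the EpiLCs and the wild-type PGCLCs. Corrected for transcript length, the most abundant members in wild-type EpiLCs were Syce2 at 872.5 ± 71.3 normalised counts per kb, Tex19.1 at 377 ± 135, Sycp3 at 344 ± 17.2 and Stag3 at 239 ± 24.6 (SD, n = 2). At day 6 in TKO aggregates with cytokines they were Tex19.1 at 1456 ± 208, Dazl at 524 ± 321, Stra8 at 459 ± 25.0 and Stag3 at 408 ± 58.4 on the same scale (SD, n = 2).

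**Figure D1:**
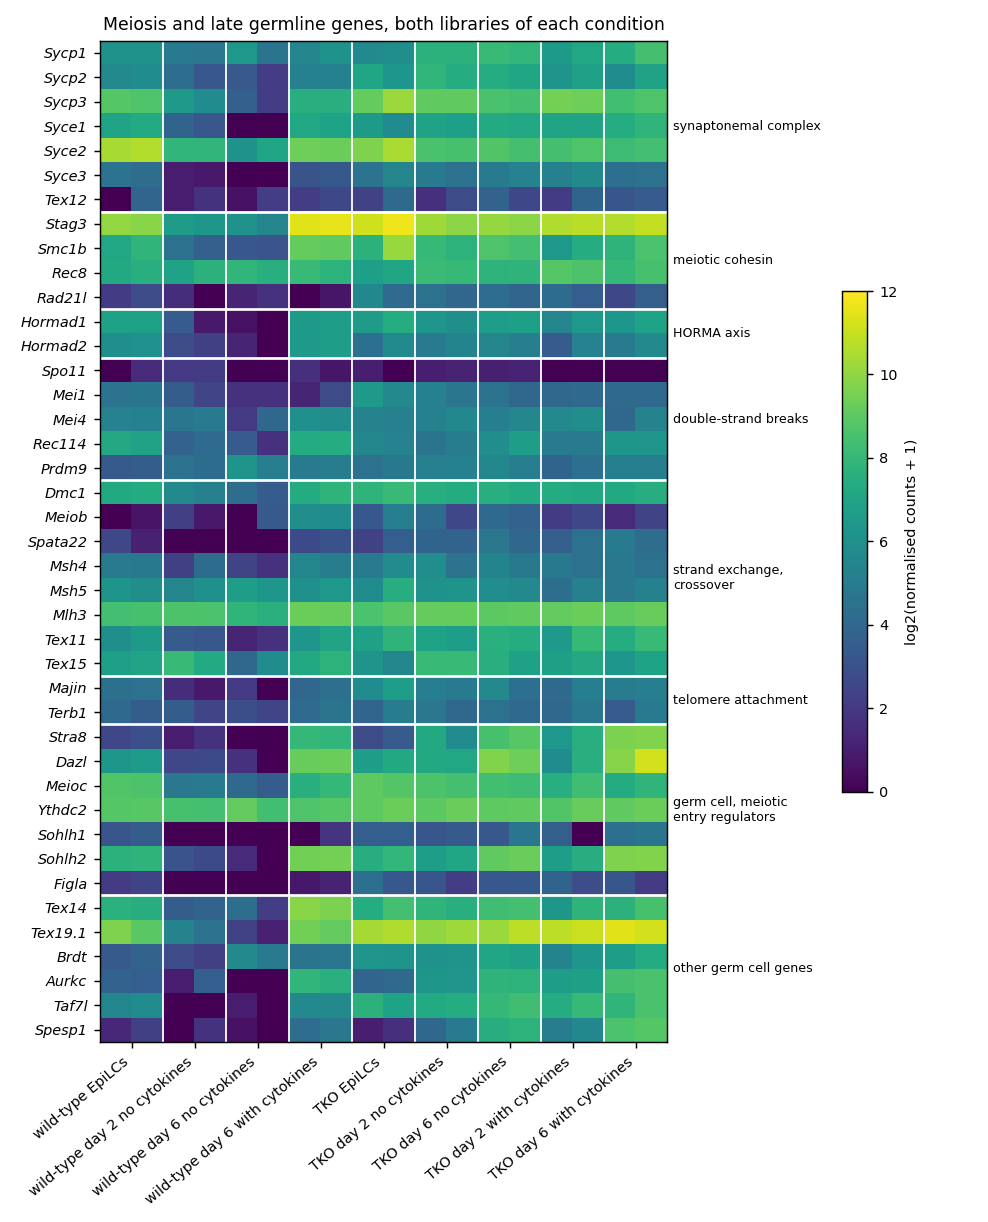
Levels of the 41 genes, as log2(normalised counts + 1), with 1 row per gene grouped by role and 1 column per library (replicates 1 and 2 of each condition side by side). The 4 wild-type libraries without cytokines are dark for most genes, while the TKO libraries of the same days are not.

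The promoters of the members were searched for the sites named above. Whether a site went with a member's change in level was not tested. RefSeq promoters (mouse GRCm38.p6, the coordinates of mm10) were at hand for 35 members and for 12819 tested genes. Only the first listed promoter of each gene was used, and the 250 bases before its start were read on both strands. For some members, Stag3, Stra8, Rec114 and Mei1 among them, this window lay inside the gene, past its outermost start. The sites given for those members describe that listed start alone. The E-box CACGTG, which reads the same on both strands, was in 9 of 35 member promoters (25.7%) and in 8.21% of all. The E2F6 core TCCCGC, which reads GCGGGA on the other strand, was in 14 (40%) and in 28.9% of all, and both were in 3 (8.57%) and in 2.7% of all. Their CpG content was near that of other genes, with a median of 13 CpG and an observed to expected ratio of 0.643 in members, against 15 and 0.694 in all promoters. Promoters with the E2F6 core alone are not shown. Sycp3 and Hormad1, which have both sites, Stag3 and Taf7l, which have the E-box alone, and Stra8 and Dazl, which have neither, are shown here. They are printed 5′ to 3′ along the gene with the sites in capitals. They lie at chr10:88459337-88459586 (+ strand) for Sycp3, chr3:95559427-95559676 (+ strand) for Hormad1, chr5:138280259-138280508 (+ strand) for Stag3, chrX:134476491-134476740 (− strand) for Taf7l, chr6:34920698-34920947 (+ strand) for Stra8 and chr17:50293621-50293870 (− strand) for Dazl. A match describes letters only, and binding and methylation were not measured in these files.
Sycp3: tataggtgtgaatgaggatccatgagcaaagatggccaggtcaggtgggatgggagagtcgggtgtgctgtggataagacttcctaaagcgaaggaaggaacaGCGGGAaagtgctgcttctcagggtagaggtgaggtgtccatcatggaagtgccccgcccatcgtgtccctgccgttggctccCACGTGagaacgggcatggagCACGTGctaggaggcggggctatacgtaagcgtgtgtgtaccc
Hormad1: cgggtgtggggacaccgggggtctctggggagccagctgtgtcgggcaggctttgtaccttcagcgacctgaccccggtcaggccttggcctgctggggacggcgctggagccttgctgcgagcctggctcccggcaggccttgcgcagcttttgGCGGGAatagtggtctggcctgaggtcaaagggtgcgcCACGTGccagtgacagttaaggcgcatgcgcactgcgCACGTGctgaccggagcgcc
Stag3: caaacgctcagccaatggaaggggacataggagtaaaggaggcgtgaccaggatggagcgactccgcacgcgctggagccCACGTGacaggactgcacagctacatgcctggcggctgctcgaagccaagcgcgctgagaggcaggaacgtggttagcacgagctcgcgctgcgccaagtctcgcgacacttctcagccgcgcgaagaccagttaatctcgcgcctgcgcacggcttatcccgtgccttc
Taf7l: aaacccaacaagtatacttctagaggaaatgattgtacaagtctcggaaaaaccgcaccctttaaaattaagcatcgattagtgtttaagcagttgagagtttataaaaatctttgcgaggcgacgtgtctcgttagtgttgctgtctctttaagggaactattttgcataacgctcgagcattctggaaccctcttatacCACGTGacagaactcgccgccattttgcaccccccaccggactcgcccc
Stra8: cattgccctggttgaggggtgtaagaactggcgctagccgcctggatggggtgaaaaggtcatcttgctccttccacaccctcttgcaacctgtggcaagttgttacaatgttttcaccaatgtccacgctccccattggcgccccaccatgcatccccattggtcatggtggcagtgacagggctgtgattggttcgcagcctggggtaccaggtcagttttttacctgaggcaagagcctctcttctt
Dazl: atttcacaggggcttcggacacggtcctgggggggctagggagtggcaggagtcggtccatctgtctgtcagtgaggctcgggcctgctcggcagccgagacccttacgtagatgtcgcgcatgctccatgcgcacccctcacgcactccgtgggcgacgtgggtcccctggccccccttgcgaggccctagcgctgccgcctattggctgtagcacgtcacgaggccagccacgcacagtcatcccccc
The 9 members with an E-box were Sycp1, Sycp3, Tex12, Stag3, Hormad1, Rec114, Sohlh1, Brdt and Taf7l. Neither site was in this window for 15 of 35 members (42.9%) and for 65.6% of all promoters.

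In wild-type aggregates without cytokines most members fell. Compared to wild-type EpiLCs, 22 of 40 tested members were lower and 0 higher at day 2, where 15.7% of all tested genes were lower and 18.6% higher. The median log2 fold change of the members was −2.45, against 0.02 for all genes (−1.90 with members at 0 in both libraries of a group set at their bound). At day 6, 30 were lower and 2 higher, where 29% of all genes were lower and 31.7% higher, with a median of −3.85 (−2.92 with bounds). Both libraries were at 0 counts at day 6 for 8 members: Syce1, Syce3, Spo11, Spata22, Stra8, Sohlh1, Figla and Aurkc. Several of these were already low in wild-type EpiLCs. No fall could be bounded for Spo11 and Spata22. For the others the fall was at least 1.58-fold (Figla) to at least 59.0-fold (Syce1), with 2.38-fold for Stra8. The members called higher at day 6 were Prdm9 and Brdt. With scaling by library size alone, which moved the median of all genes from 0.05 to 0.73, the day 6 count was 27 lower and 5 higher, and the day 2 count was 20 lower and 3 higher. The same aggregates gained neural markers. The summed level of 7 neural markers, of which 3 were detected in wild-type EpiLCs and all 7 in these aggregates, was 527 and 479 in wild-type EpiLCs, 4845 and 3580 at day 2 and 23117 and 24321 at day 6, and its part in the fall of the members was not tested.

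In TKO aggregates without cytokines the members persisted. Compared to TKO EpiLCs, 6 were higher and 3 lower at day 2 (10.1% and 8.52% of all genes), with a median log2 fold change of −0.31. At day 6, 9 were higher and 4 lower (15.7% and 12.3% of all genes), with a median of 0.12. Leaving out either day 6 library gave a day 6 total of 8. Scaling by library size alone gave 9 higher and 2 lower at day 2 and 15 higher and 2 lower at day 6. The change from EpiLCs to day 2 differed between the genotypes for 20 members, all in the direction of TKO (6.08% of all genes in that direction and 6.19% in the other). To day 6 it differed for 29 members in the direction of TKO and for 1, Prdm9, in the other (18.5% of all genes each way). The neural sum rose in TKO cells too, though to lower levels than in wild-type. It was 258 and 246 in TKO EpiLCs, and in TKO aggregates without cytokines 1197 and 1611 at day 2 and 1501 and 2100 at day 6. At day 6 a sum of 5 endoderm markers was 463 and 327 in TKO and 73.9 and 9.26 in wild-type aggregates, and one of 5 mesoderm markers was 191 and 178 in TKO and 35.8 and 17.4 in wild-type aggregates. The part of these markers in the members' difference was not tested.

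**Figure D2:**
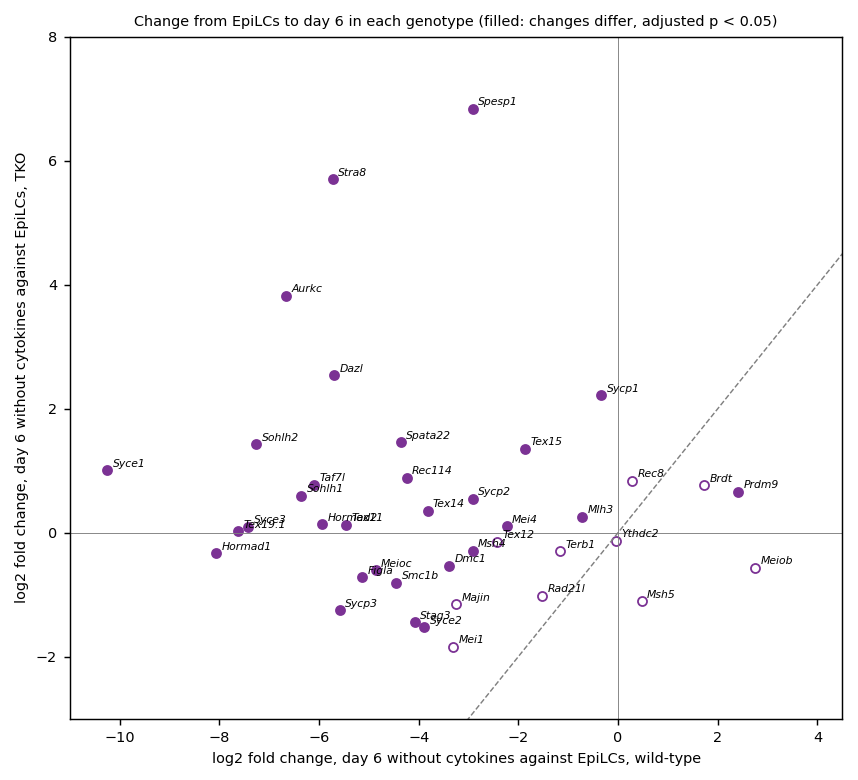
Log2 fold change from EpiLCs to day 6 without cytokines for 40 members, in wild-type cells (horizontal) and TKO cells (vertical), with the dashed line where both are equal and filled points where the changes differed at an adjusted p below 0.05. Most points lie far to the left of 0 and near or above 0 vertically, and fitted changes of genes at 0 in both wild-type libraries depend on the fit's prior count.

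Set side by side on the same day, TKO aggregates without cytokines had 29 members higher and 0 lower than wild-type at day 2, against 18% and 14.8% of all genes. At day 6, 34 were higher and 0 lower, against 28.5% and 26.9% of all genes. The medians were 3.58 and 4.30, or 2.87 and 3.50 with bounds. The members not called at day 6 were Tex12, Rec8, Prdm9, Meiob, Msh5 and Ythdc2. A fit of only the day 6 libraries compared, which shares no spread with other conditions, called 30 of 37 tested members, all higher. In EpiLCs the genotypes were closer, with 9 members higher and 1 lower in TKO (7.57% and 3.18% of all genes) and a median of 0.57. Those higher were Sycp3, Stag3, Smc1b, Rad21l, Meiob, Majin, Tex19.1, Brdt and Taf7l, and Rec114 was lower. That count rests on single libraries, since leaving out wild-type EpiLC replicate 1 gave 3, wild-type EpiLC replicate 2 gave 2 and TKO EpiLC replicate 2 gave 4.

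**Figure D3:**
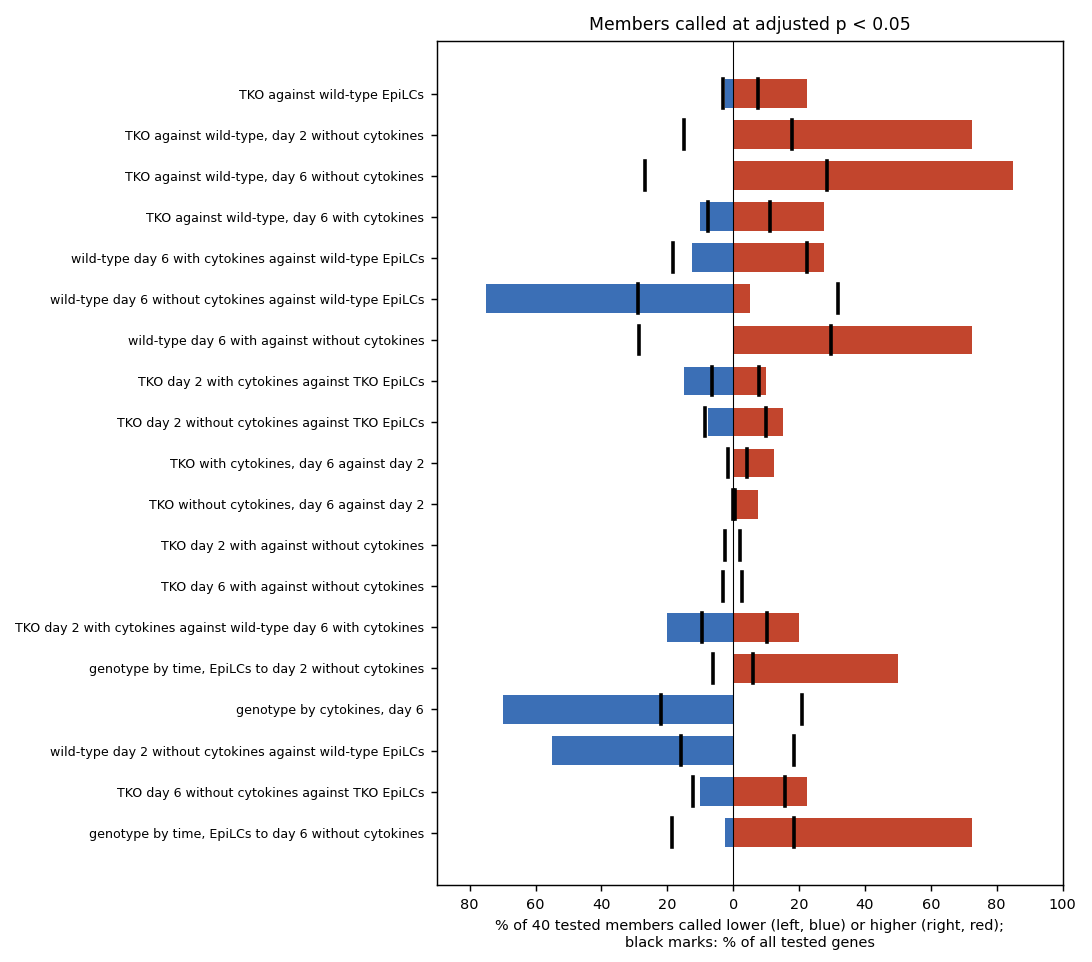
Percent of the 40 tested members called lower (blue, to the left of 0) or higher (red, to the right) (adjusted p below 0.05) for every comparison, with black marks at the percent of all 16582 tested genes. The bars pass the marks most at days 2 and 6 without cytokines, 72.5% and 85% higher in TKO, and are at 0 for cytokines in TKO cells in the fit of all conditions.

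The synaptonemal complex is built of transverse filaments (SYCP1), a central element (SYCE1, SYCE2, SYCE3 and TEX12) and lateral elements (SYCP2 and SYCP3). At day 6 without cytokines 6 of its 7 members were higher in TKO aggregates, a share like that of the 34 among all 40 tested members (28.5% of all genes). Sycp3 had 449.8 and 419 normalised counts in wild-type EpiLCs, 86.8 and 55.9 at day 2 and 11.8 and 3.47 at day 6 without cytokines, and 187 and 189 in wild-type PGCLCs. TKO levels of Sycp3 were 570.4 and 1162 in EpiLCs, 528 and 532 at day 2 and 379 and 352 at day 6 without cytokines, and 723 and 653 at day 2 and 324 and 413 at day 6 with cytokines. The day 6 libraries of the genotypes did not overlap, with a log2 fold change of 5.36 (SE 0.41, adjusted p = 6.53e-08). By the GENCODE annotation 52.2% of the Sycp3 exon length overlaps Chpt1 on the opposite strand, and counting did not use the strand, so its level is uncertain. Sycp1 had 70.7 and 71.2 normalised counts in wild-type EpiLCs, 29.2 and 25.6 at day 2 and 84.3 and 23.2 at day 6 without cytokines, and 42.4 and 70.1 in wild-type PGCLCs. TKO levels of Sycp1 were 50.6 and 62.7 in EpiLCs, 205 and 207 at day 2 and 280.0 and 249 at day 6 without cytokines, and 91.8 and 145 at day 2 and 173 and 356 at day 6 with cytokines. It rose in TKO cells without cytokines, with a log2 fold change of 2.22 (SE 0.47, adjusted p = 0.00360) from EpiLCs to day 6. Sycp2 had 49.8 and 56.1 normalised counts in wild-type EpiLCs, 19.5 and 8.55 at day 2 and 9.07 and 3.47 at day 6 without cytokines, and 37.5 and 37.3 in wild-type PGCLCs. TKO levels of Sycp2 were 129.96 and 78.1 in EpiLCs, 241 and 172 at day 2 and 169 and 136 at day 6 without cytokines, and 72.5 and 114 at day 2 and 55.4 and 119 at day 6 with cytokines. Its TKO aggregates without cytokines were above the wild-type ones on both days. Syce1 had 127 and 158 normalised counts in wild-type EpiLCs, 13.6 and 8.55 at day 2 and 0 and 0 at day 6 without cytokines, and 139 and 125 in wild-type PGCLCs, so that the day 6 level was at least 59.0-fold lower than in EpiLCs (3 counts allowed per library). TKO levels of Syce1 were 93.3 and 55.0 in EpiLCs, 119 and 109 at day 2 and 160.4 and 139 at day 6 without cytokines, and 126 and 129 at day 2 and 169.7 and 231 at day 6 with cytokines. Syce1 thus had reads in every TKO library and in none of wild-type day 6 aggregates. Syce2 had 1401 and 1573 normalised counts in wild-type EpiLCs, 237 and 237 at day 2 and 69.8 and 137 at day 6 without cytokines, and 661 and 631 in wild-type PGCLCs. TKO levels of Syce2 were 831 and 1407 in EpiLCs, 374 and 359 at day 2 and 427 and 352 at day 6 without cytokines, and 351 and 416 at day 2 and 296 and 343 at day 6 with cytokines. It fell in both genotypes, with a log2 fold change of −3.88 (SE 0.31, adjusted p = 6.67e-08) in wild-type and a log2 fold change of −1.53 (SE 0.28, adjusted p = 0.00117) in TKO cells from EpiLCs to day 6 without cytokines. Syce3 had 22.5 and 18.3 normalised counts in wild-type EpiLCs, 0.975 and 0.777 at day 2 and 0 and 0 at day 6 without cytokines, and 7.65 and 9.01 in wild-type PGCLCs. TKO levels of Syce3 were 22.8 and 42.9 in EpiLCs, 30.1 and 21.6 at day 2 and 31.2 and 39.1 at day 6 without cytokines, and 36.3 and 50.9 at day 2 and 20.2 and 21.8 at day 6 with cytokines. At day 6 without cytokines Syce3 was at least 14.6-fold higher in TKO than in wild-type aggregates. Tex12 was low throughout, with 0 to 16.5 normalised counts over all libraries, and was called in no comparison.

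Meiotic cohesin holds sister chromatids together and forms the chromosome axis, with STAG3, SMC1B, REC8 and RAD21L in place of mitotic subunits. Stag3 had 1079.5 and 933 normalised counts in wild-type EpiLCs, 99.4 and 81.6 at day 2 and 71.2 and 42.8 at day 6 without cytokines, and 2783 and 2988 in wild-type PGCLCs. TKO levels of Stag3 were 2253 and 3350.3 in EpiLCs, 1256 and 972 at day 2 and 1106 and 954 at day 6 without cytokines, and 1515 and 1709 at day 2 and 1545 and 1893 at day 6 with cytokines. It was higher in wild-type PGCLCs than in any aggregate, with a log2 fold change of 1.57 (SE 0.23, adjusted p = 9.94e-05) against wild-type EpiLCs and a log2 fold change of −0.75 (SE 0.23, adjusted p = 0.0301) in TKO aggregates against wild-type PGCLCs at day 6. Smc1b had 141 and 227 normalised counts in wild-type EpiLCs, 21.4 and 11.7 at day 2 and 8.61 and 8.11 at day 6 without cytokines, and 576 and 531 in wild-type PGCLCs. TKO levels of Smc1b were 205 and 1122 in EpiLCs, 265 and 219 at day 2 and 419.9 and 342 at day 6 without cytokines, and 82.7 and 171 at day 2 and 225 and 388 at day 6 with cytokines. The TKO EpiLC libraries of Smc1b lay far apart, and wild-type PGCLCs were above all aggregates. Rec8 had 157 and 190.1 normalised counts in wild-type EpiLCs, 121 and 207 at day 2 and 240.3 and 181 at day 6 without cytokines, and 280.2 and 217 in wild-type PGCLCs. TKO levels of Rec8 were 108 and 133 in EpiLCs, 284 and 258 at day 2 and 212 and 221 at day 6 without cytokines, and 460.1 and 395 at day 2 and 255 and 369 at day 6 with cytokines. Its genotypes overlapped at day 6 without cytokines, and it rose from TKO EpiLCs to day 2, with a log2 fold change of 1.83 (SE 0.29, adjusted p = 0.000586) with cytokines. Rad21l had 3.21 and 6.11 normalised counts in wild-type EpiLCs, 1.95 and 0 at day 2 and 1.36 and 2.32 at day 6 without cytokines, and 0 and 0.643 in wild-type PGCLCs. TKO levels of Rad21l were 47.6 and 17.6 in EpiLCs, 21.8 and 14.4 at day 2 and 18.3 and 13.9 at day 6 without cytokines, and 18.1 and 11.2 at day 2 and 5.04 and 11.5 at day 6 with cytokines. Every TKO library had more Rad21l than every wild-type library of the same stage, and in EpiLCs it was higher in TKO, with a log2 fold change of 2.68 (SE 0.74, adjusted p = 0.0303).

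HORMAD1 and HORMAD2 mark axes that have not yet synapsed. Hormad1 had 117 and 117 normalised counts in wild-type EpiLCs, 9.75 and 0.777 at day 2 and 0.453 and 0 at day 6 without cytokines, and 93.2 and 105 in wild-type PGCLCs. TKO levels of Hormad1 were 97.2 and 172 in EpiLCs, 77.8 and 62.5 at day 2 and 103 and 111 at day 6 without cytokines, and 43.1 and 83.2 at day 2 and 79.0 and 124 at day 6 with cytokines. Its wild-type day 6 aggregates held a single read. Hormad2 had 62.7 and 66.2 normalised counts in wild-type EpiLCs, 5.85 and 3.88 at day 2 and 1.36 and 0 at day 6 without cytokines, and 89.7 and 105 in wild-type PGCLCs. TKO levels of Hormad2 were 19.8 and 50.6 in EpiLCs, 30.1 and 42.1 at day 2 and 43.1 and 34.1 at day 6 without cytokines, and 10.2 and 38.5 at day 2 and 30.2 and 49.4 at day 6 with cytokines. Both fell in wild-type aggregates without cytokines (adjusted p = 1.43e-06 and 1.53e-05 at day 6) and were higher in TKO aggregates of the same day (adjusted p = 2.43e-06 and 8.46e-05). Neither was called between TKO and wild-type EpiLCs.

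Of the genes for double-strand breaks, MEI1, MEI4 and REC114 assist SPO11, and PRDM9 marks the sites by histone methylation. Mei1 had 22.5 and 24.5 normalised counts in wild-type EpiLCs, 10.7 and 4.66 at day 2 and 2.27 and 2.32 at day 6 without cytokines, and 1.39 and 5.79 in wild-type PGCLCs. TKO levels of Mei1 were 86.3 and 49.5 in EpiLCs, 37.4 and 25.2 at day 2 and 22.6 and 15.1 at day 6 without cytokines, and 15.9 and 16.1 at day 2 and 16.8 and 16.1 at day 6 with cytokines. It was lower in wild-type PGCLCs than in EpiLCs, with a log2 fold change of −2.62 (SE 0.61, adjusted p = 0.00322), and higher in TKO aggregates with cytokines than in wild-type PGCLCs at day 6, with a log2 fold change of 2.13 (SE 0.64, adjusted p = 0.0293). Mei4 had 38.6 and 37.2 normalised counts in wild-type EpiLCs, 25.3 and 30.3 at day 2 and 3.17 and 15.1 at day 6 without cytokines, and 64.0 and 57.3 in wild-type PGCLCs. TKO levels of Mei4 were 39.7 and 36.3 in EpiLCs, 37.4 and 48.1 at day 2 and 35.5 and 46.7 at day 6 without cytokines, and 49.9 and 59.6 at day 2 and 15.1 and 40.2 at day 6 with cytokines. Its libraries overlapped between genotypes in EpiLCs. Without cytokines at day 6 both TKO libraries were above both wild-type libraries. Rec114 had 153 and 120.1 normalised counts in wild-type EpiLCs, 12.7 and 17.1 at day 2 and 9.97 and 2.32 at day 6 without cytokines, and 168 and 169 in wild-type PGCLCs. TKO levels of Rec114 were 46.6 and 38.5 in EpiLCs, 23.9 and 32.4 at day 2 and 57.1 and 102 at day 6 without cytokines, and 29.5 and 28.5 at day 2 and 80.6 and 75.8 at day 6 with cytokines. It was the one member lower in TKO EpiLCs, with a log2 fold change of −1.64 (SE 0.41, adjusted p = 0.0205), and 28.4% of its exon length overlaps Nptn on the opposite strand. Prdm9 had 9.64 and 10.6 normalised counts in wild-type EpiLCs, 21.4 and 17.9 at day 2 and 73.4 and 33.6 at day 6 without cytokines, and 28.5 and 33.5 in wild-type PGCLCs. TKO levels of Prdm9 were 21.8 and 27.5 in EpiLCs, 36.3 and 37.2 at day 2 and 44.1 and 34.1 at day 6 without cytokines, and 13.6 and 19.9 at day 2 and 35.3 and 34.4 at day 6 with cytokines. It rose in wild-type aggregates without cytokines, with a log2 fold change of 2.40 (SE 0.45, adjusted p = 0.000296) from EpiLCs to day 6, against the direction of most members. Spo11 had 0 to 3.11 normalised counts over the 18 libraries.

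Strand exchange and crossover genes include the recombinase DMC1, the single-strand binding pair MEIOB and SPATA22, the MutS and MutL proteins MSH4, MSH5 and MLH3, and TEX11 and TEX15. Dmc1 had 154 and 168 normalised counts in wild-type EpiLCs, 48.7 and 36.5 at day 2 and 18.6 and 10.4 at day 6 without cytokines, and 168 and 223 in wild-type PGCLCs. TKO levels of Dmc1 were 225 and 275 in EpiLCs, 189.9 and 163 at day 2 and 186 and 160.3 at day 6 without cytokines, and 167 and 154 at day 2 and 158 and 179 at day 6 with cytokines. It was higher in TKO at day 6 without cytokines, with a log2 fold change of 3.51 (SE 0.31, adjusted p = 2.30e-07). Tex11 had 62.7 and 91.2 normalised counts in wild-type EpiLCs, 9.75 and 8.55 at day 2 and 1.36 and 2.32 at day 6 without cytokines, and 78.6 and 127 in wild-type PGCLCs. TKO levels of Tex11 were 117 and 219.9 in EpiLCs, 124 and 105 at day 2 and 196 and 174 at day 6 without cytokines, and 88.4 and 262 at day 2 and 171 and 281 at day 6 with cytokines. Its wild-type aggregates without cytokines were below every TKO aggregate. Tex15 had 109 and 129.5 normalised counts in wild-type EpiLCs, 279.8 and 161 at day 2 and 15.0 and 55.6 at day 6 without cytokines, and 156 and 216 in wild-type PGCLCs. TKO levels of Tex15 were 72.4 and 45.1 in EpiLCs, 267 and 267 at day 2 and 186 and 115 at day 6 without cytokines, and 113 and 150.2 at day 2 and 79.0 and 122 at day 6 with cytokines. At day 2 without cytokines the genotypes of Tex15 overlapped, and at day 6 TKO was higher, with a log2 fold change of 2.22 (SE 0.50, adjusted p = 0.00150). Msh4 had 30.5 and 27.8 normalised counts in wild-type EpiLCs, 3.90 and 17.9 at day 2 and 4.53 and 2.32 at day 6 without cytokines, and 44.5 and 33.5 in wild-type PGCLCs. TKO levels of Msh4 were 30.8 and 55.0 in EpiLCs, 57.1 and 22.8 at day 2 and 42.0 and 27.8 at day 6 without cytokines, and 28.3 and 21.1 at day 2 and 26.9 and 21.8 at day 6 with cytokines. Without cytokines its TKO libraries were above the wild-type libraries on both days. Mlh3, which also acts in mitotic cells, had 345 and 362 normalised counts in wild-type EpiLCs, 401 and 392 at day 2 and 231 and 196 at day 6 without cytokines, and 639 and 597 in wild-type PGCLCs. TKO levels of Mlh3 were 384 and 484 in EpiLCs, 576 and 579 at day 2 and 495 and 543 at day 6 without cytokines, and 546 and 640.5 at day 2 and 519 and 590.1 at day 6 with cytokines. Mlh3 was higher in TKO aggregates at day 6, with a log2 fold change of 1.30 (SE 0.18, adjusted p = 2.02e-05). Spata22 had 4.82 and 1.11 normalised counts in wild-type EpiLCs, 0 and 0 at day 2 and 0 and 0 at day 6 without cytokines, and 5.56 and 7.08 in wild-type PGCLCs. TKO levels of Spata22 were 3.97 and 11 in EpiLCs, 13.5 and 13.2 at day 2 and 25.8 and 15.1 at day 6 without cytokines, and 11.3 and 21.1 at day 2 and 28.6 and 18.4 at day 6 with cytokines. All its levels were between 0 and 28.6 normalised counts, and 80.5% of its exon length overlaps the gene model Gm49340 on the same strand. Meiob had 0 and 0.556 normalised counts in wild-type EpiLCs, 3.90 and 0.777 at day 2 and 0 and 9.26 at day 6 without cytokines, and 59.1 and 55.3 in wild-type PGCLCs. TKO levels of Meiob were 8.93 and 34.1 in EpiLCs, 17.6 and 4.81 at day 2 and 16.2 and 12.6 at day 6 without cytokines, and 3.40 and 4.96 at day 2 and 1.68 and 4.59 at day 6 with cytokines. Meiob was highest in wild-type PGCLCs, with an adjusted p of 0.00133 against wild-type EpiLCs, where it had at most 1 read, and 0.0196 for TKO against wild-type at day 6 with cytokines. Msh5 had 19.3 to 175 normalised counts over the 18 libraries and at day 6 without cytokines was not called between genotypes, when wild-type aggregates were above TKO aggregates.

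MAJIN and TERB1 tether telomeres to the nuclear envelope. Majin had 20.9 and 21.1 normalised counts in wild-type EpiLCs, 1.95 and 0.777 at day 2 and 3.17 and 0 at day 6 without cytokines, and 14.6 and 20.6 in wild-type PGCLCs. TKO levels of Majin were 56.5 and 100.1 in EpiLCs, 34.2 and 30.0 at day 2 and 49.5 and 20.2 at day 6 without cytokines, and 17 and 34.8 at day 2 and 31.9 and 34.4 at day 6 with cytokines. It was higher in TKO aggregates without cytokines at day 2, with an adjusted p of 0.000785. Terb1 had 16.1 and 10.6 normalised counts in wild-type EpiLCs, 10.7 and 4.66 at day 2 and 6.35 and 4.63 at day 6 without cytokines, and 17.4 and 23.2 in wild-type PGCLCs. TKO levels of Terb1 were 13.9 and 32.99 in EpiLCs, 25.9 and 15.6 at day 2 and 21.5 and 16.4 at day 6 without cytokines, and 15.9 and 27.3 at day 2 and 10.1 and 28.7 at day 6 with cytokines. Its difference at day 6 was a log2 fold change of 1.75 (SE 0.66, adjusted p = 0.0348).

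Among the regulators, STRA8 is the retinoic acid-induced switch for meiotic entry and DAZL an RNA-binding protein of gonadal germ cells. Stra8 had 4.82 and 6.67 normalised counts in wild-type EpiLCs, 0.975 and 2.33 at day 2 and 0 and 0 at day 6 without cytokines, and 249.6 and 237 in wild-type PGCLCs. TKO levels of Stra8 were 5.95 and 9.90 in EpiLCs, 155 and 54.1 at day 2 and 363 and 471 at day 6 without cytokines, and 83.9 and 182 at day 2 and 796 and 859.9 at day 6 with cytokines. Both EpiLC groups were low, and wild-type PGCLCs and all TKO aggregates were above them. Stra8 rose from TKO EpiLCs to day 2, with a log2 fold change of 3.71 (SE 0.55, adjusted p = 0.000662) without and a log2 fold change of 4.07 (SE 0.55, adjusted p = 0.000247) with cytokines. At day 6 without cytokines it was at least 172-fold higher in TKO than in wild-type aggregates. With cytokines TKO aggregates exceeded wild-type PGCLCs, with a log2 fold change of 1.76 (SE 0.40, adjusted p = 0.00818). Dazl had 81.9 and 93.9 normalised counts in wild-type EpiLCs, 4.87 and 5.44 at day 2 and 2.27 and 0 at day 6 without cytokines, and 583 and 631 in wild-type PGCLCs. TKO levels of Dazl were 100.2 and 156 in EpiLCs, 157 and 147 at day 2 and 844 and 650.0 at day 6 without cytokines, and 55.5 and 186 at day 2 and 905 and 2290.3 at day 6 with cytokines. Its 2 day 6 libraries with cytokines in TKO cells differed widely. Dazl rose between days 2 and 6 in TKO cells, with a log2 fold change of 3.73 (SE 0.50, adjusted p = 0.000525) with and a log2 fold change of 2.31 (SE 0.47, adjusted p = 0.0409) without cytokines. Sohlh2, a transcription factor of spermatogonia and oocytes, had 206 and 221 normalised counts in wild-type EpiLCs, 7.80 and 5.44 at day 2 and 1.81 and 0 at day 6 without cytokines, and 695 and 716 in wild-type PGCLCs. TKO levels of Sohlh2 were 176 and 248 in EpiLCs, 102 and 136 at day 2 and 543 and 603 at day 6 without cytokines, and 103 and 176 at day 2 and 821 and 846 at day 6 with cytokines. Sohlh2 was at a like level in EpiLCs of both genotypes and rose between days 2 and 6 in TKO cells, with a log2 fold change of 2.58 (SE 0.29, adjusted p = 0.000128) with and a log2 fold change of 2.28 (SE 0.29, adjusted p = 0.00184) without cytokines. Meioc, a partner of YTHDC2 in meiotic prophase, had 429 and 402 normalised counts in wild-type EpiLCs, 27.3 and 28.7 at day 2 and 16.3 and 10.4 at day 6 without cytokines, and 186 and 255 in wild-type PGCLCs. TKO levels of Meioc were 517 and 446 in EpiLCs, 402 and 349.6 at day 2 and 329 and 305 at day 6 without cytokines, and 184 and 318 at day 2 and 165 and 227 at day 6 with cytokines. It differed between genotypes at day 6 without cytokines, with a log2 fold change of 4.5 (SE 0.33, adjusted p = 3.85e-08). Sohlh1, a relative of Sohlh2, had 8.03 and 10.6 normalised counts in wild-type EpiLCs, 0 and 0 at day 2 and 0 and 0 at day 6 without cytokines, and 0 and 2.57 in wild-type PGCLCs. TKO levels of Sohlh1 were 10.9 and 11 in EpiLCs, 8.30 and 9.61 at day 2 and 8.61 and 25.2 at day 6 without cytokines, and 11.3 and 0 at day 2 and 20.2 and 24.1 at day 6 with cytokines. Sohlh1 was at 0 counts in wild-type aggregates without cytokines. Figla, a regulator of oocyte genes, had 3.21 and 4.45 normalised counts in wild-type EpiLCs, 0 and 0 at day 2 and 0 and 0 at day 6 without cytokines, and 0.695 and 1.29 in wild-type PGCLCs. TKO levels of Figla were 19.8 and 8.80 in EpiLCs, 8.30 and 3.60 at day 2 and 8.61 and 8.83 at day 6 without cytokines, and 13.6 and 6.21 at day 2 and 8.399 and 3.44 at day 6 with cytokines. Sohlh1 thus stayed at or below 25.2 and Figla at or below 19.8 normalised counts. Ythdc2, an RNA helicase that is expressed widely, lay between 334 and 639 normalised counts in every library and was called in no comparison. Stra8, Dazl, Taf7l and Spesp1 are late germline markers that the study chose on these samples, so their direction is not independent evidence.

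Of the other germ cell genes, Tex19.1 restrains retrotransposons and is active in early embryos too. Tex19.1 had 824 and 490.3 normalised counts in wild-type EpiLCs, 39.97 and 22.5 at day 2 and 4.08 and 1.158 at day 6 without cytokines, and 707 and 558 in wild-type PGCLCs. TKO levels of Tex19.1 were 1347 and 1544 in EpiLCs, 1026 and 1207 at day 2 and 1165 and 1786 at day 6 without cytokines, and 1795 and 2132 at day 2 and 2797 and 2283 at day 6 with cytokines. All TKO libraries were above all wild-type libraries, and TKO EpiLCs were higher than wild-type EpiLCs, with a log2 fold change of 1.18 (SE 0.28, adjusted p = 0.0145). Taf7l, a germ cell relative of the general transcription factor subunit TAF7, had 45.0 and 56.7 normalised counts in wild-type EpiLCs, 0 and 0 at day 2 and 0.907 and 0 at day 6 without cytokines, and 49.4 and 49.5 in wild-type PGCLCs. TKO levels of Taf7l were 211 and 124 in EpiLCs, 159 and 173 at day 2 and 255 and 322 at day 6 without cytokines, and 173 and 263 at day 2 and 233 and 371 at day 6 with cytokines. Its TKO libraries were all above its wild-type libraries, and at day 2 without cytokines it was at least 63.1-fold higher in TKO than in wild-type aggregates. Brdt, a testis bromodomain protein, had 9.64 and 13.3 normalised counts in wild-type EpiLCs, 5.85 and 3.88 at day 2 and 49.0 and 29.0 at day 6 without cytokines, and 23.6 and 25.1 in wild-type PGCLCs. TKO levels of Brdt were 76.4 and 72.6 in EpiLCs, 68.5 and 73.3 at day 2 and 138 and 116 at day 6 without cytokines, and 41.9 and 77.0 at day 2 and 104 and 168 at day 6 with cytokines. It was higher in TKO EpiLCs, with a log2 fold change of 2.66 (SE 0.43, adjusted p = 0.00162), and in wild-type aggregates without cytokines rose to day 6, with a log2 fold change of 1.72 (SE 0.43, adjusted p = 0.00265). Aurkc, a kinase of meiotic divisions, had 12.9 and 11.1 normalised counts in wild-type EpiLCs, 0.975 and 10.9 at day 2 and 0 and 0 at day 6 without cytokines, and 239 and 194 in wild-type PGCLCs. TKO levels of Aurkc were 13.9 and 16.5 in EpiLCs, 81.0 and 74.5 at day 2 and 221 and 213 at day 6 without cytokines, and 102 and 110.5 at day 2 and 354 and 377 at day 6 with cytokines. At day 6 without cytokines it was at least 89.8-fold higher in TKO than in wild-type aggregates. Spesp1, which encodes a sperm head protein, had 1.61 and 3.89 normalised counts in wild-type EpiLCs, 0 and 2.33 at day 2 and 0.453 and 0 at day 6 without cytokines, and 18.8 and 26.4 in wild-type PGCLCs. TKO levels of Spesp1 were 0.992 and 2.20 in EpiLCs, 15.6 and 28.8 at day 2 and 177 and 212 at day 6 without cytokines, and 31.7 and 47.2 at day 2 and 389.7 and 451 at day 6 with cytokines. It rose from TKO EpiLCs to day 6 without cytokines, with an adjusted p of 5.30e-06 from at most 2 reads per EpiLC library, and was higher in TKO than in wild-type cells with cytokines at day 6, with a log2 fold change of 4.21 (SE 0.46, adjusted p = 3.26e-05). Tex14, which keeps germ cells joined by bridges, had 202 and 177 normalised counts in wild-type EpiLCs, 10.7 and 13.2 at day 2 and 19.04 and 3.47 at day 6 without cytokines, and 921 and 795 in wild-type PGCLCs. TKO levels of Tex14 were 173 and 342 in EpiLCs, 227 and 189.8 at day 2 and 319 and 342 at day 6 without cytokines, and 81.6 and 225 at day 2 and 212 and 363 at day 6 with cytokines. It was highest in wild-type PGCLCs, with a log2 fold change of −1.58 (SE 0.45, adjusted p = 0.0246) in TKO against wild-type at day 6 with cytokines.

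**Figure D4:**
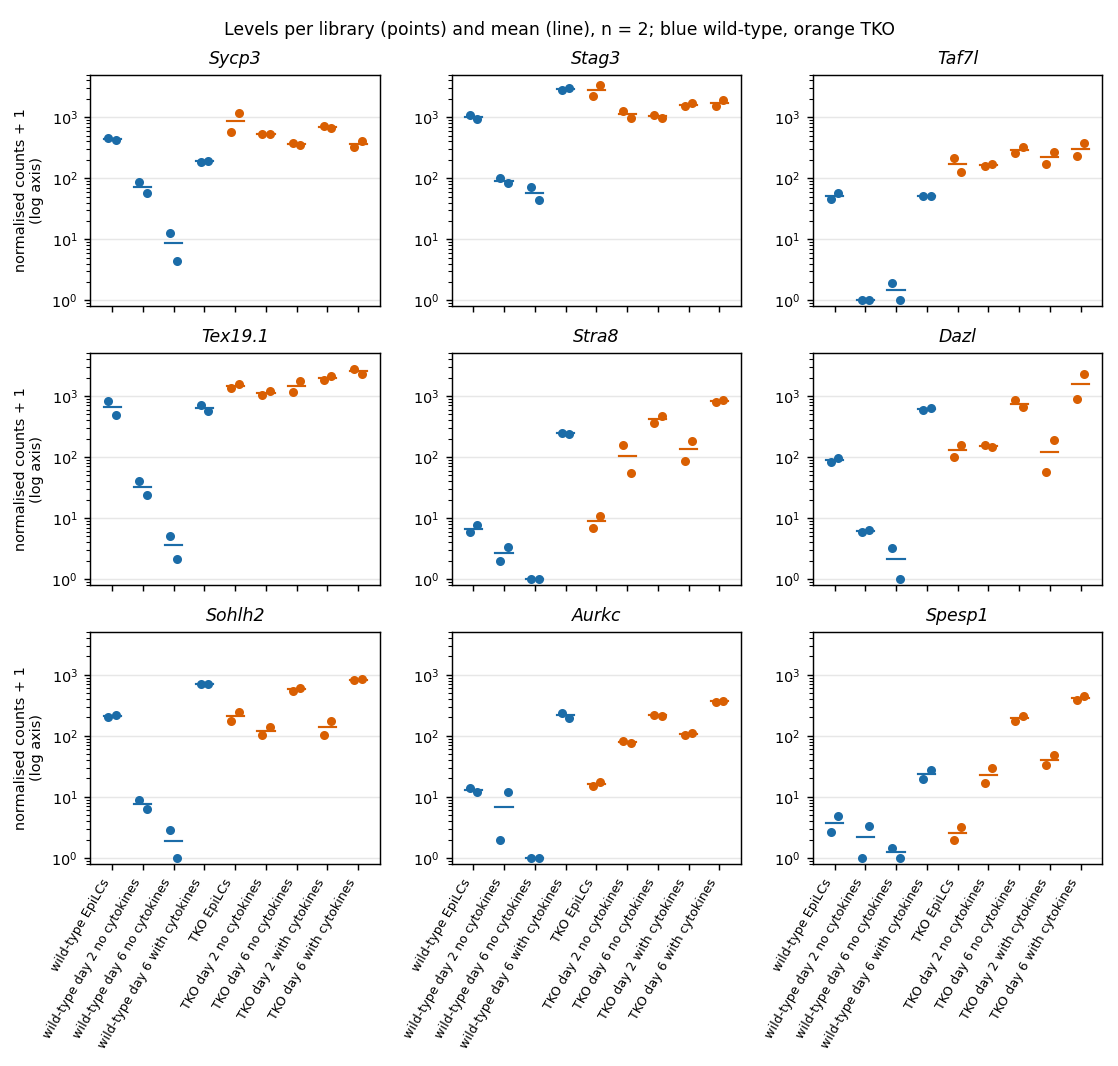
Normalised counts + 1 on a log axis for 9 members, with 1 point per library, a line at the mean of 2 libraries, and wild-type in blue and TKO in orange. TKO aggregates without cytokines lie above wild-type ones in all 9 panels, with Sycp3 and Stag3 lower at day 6 than in TKO EpiLCs and Stra8, Dazl, Sohlh2, Aurkc and Spesp1 higher.

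Wild-type PGCLCs were compared with the cells they came from and with their cytokine-free counterpart. Against wild-type EpiLCs 11 members were higher and 5 lower (22.4% and 18.2% of all genes), or 13 and 3 with scaling by library size alone. The higher members were Stag3, Smc1b, Prdm9, Meiob, Mlh3, Stra8, Dazl, Sohlh2, Tex14, Aurkc and Spesp1, and the lower were Sycp3, Syce2, Rad21l, Mei1 and Meioc. Against wild-type aggregates without cytokines at day 6, 29 were higher and 0 lower (29.6% and 28.6% of all genes). The early germ cell markers of the list, all 8 detected in wild-type PGCLCs, summed to 17228 and 14492 there and to 1407 and 640.4 in the aggregates without cytokines. Sorting and cytokines cannot be told apart in that comparison.

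In TKO cells no effect of cytokines on the members passed the test in the fit of all conditions, and some did in other fits. At day 2, 0 were higher and 0 lower with cytokines (2.05% and 2.47% of all genes), with 3 higher and 5 lower at an unadjusted p below 0.05 in edgeR's test and 0 called by DESeq2. A fit of only the libraries compared called 3 higher and 5 lower at day 2, and scaling by library size alone called 4 lower. At day 6, 0 were higher and 0 lower (2.56% and 3.05% of all genes), with 5 higher and 1 lower at an unadjusted p below 0.05 and 2 higher called by DESeq2. A fit of only the libraries compared called 5 higher at day 6, no filter called 3 higher, and scaling by library size alone called 1 lower. Among those nearest the threshold at day 6 were Stag3, with a log2 fold change of 0.75 (SE 0.23, adjusted p = 0.0637), and Tex19.1, with a log2 fold change of 0.80 (SE 0.27, adjusted p = 0.0951). Stra8 had a log2 fold change of 1.01 (SE 0.40, adjusted p = 0.150) and Dazl a log2 fold change of 1.11 (SE 0.44, adjusted p = 0.148). The cytokine effect at day 6 differed between genotypes for 28 members, all smaller in TKO (22% of all genes in that direction and 21% in the other).

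Over time in TKO aggregates members moved both ways. Compared to TKO EpiLCs, 4 members were higher and 6 lower at day 2 with cytokines (7.88% and 6.39% of all genes). The higher were Rec8, Stra8, Aurkc and Spesp1, and the lower were Syce2, Stag3, Smc1b, Mei1, Msh5 and Meioc. Leaving out TKO EpiLC replicate 2 or day 2 replicate 1 gave totals of 6 and 5. Between days 2 and 6 with cytokines, Stra8, Dazl, Sohlh2, Aurkc and Spesp1 rose and 0 fell (4.28% and 1.72% of all genes), with 3 called without day 2 replicate 1. Without cytokines Dazl, Sohlh2 and Spesp1 rose and 0 fell (0.422% and 0.0543% of all genes), and leaving out day 2 replicate 1 gave 0 and day 2 replicate 2 gave 1. Spesp1 had a log2 fold change of 3.42 (SE 0.45, adjusted p = 0.000490) with and a log2 fold change of 3.14 (SE 0.46, adjusted p = 0.00452) without cytokines. Genes of the state named for the 2-cell embryo also rose between days 2 and 6 in TKO aggregates. The summed level of 6 such genes, Zscan4d among them, was 263 and 296 at day 2 and 2613 and 3088 at day 6 without cytokines, and 100.9 and 294 at day 2 and 4635 and 4545 at day 6 with cytokines. It was 46.6 and 32.8 in wild-type and 0 and 9.90 in TKO EpiLCs, and 0 and 0 in wild-type day 6 aggregates without cytokines. In wild-type PGCLCs, where Dazl and Sohlh2 were called higher than in wild-type EpiLCs, it was only 34.1 and 65.6. The part of these genes in the rise of the members was not tested.

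Against wild-type PGCLCs at day 6, TKO aggregates with cytokines had 11 members higher and 4 lower at day 6 (11.3% and 7.53% of all genes). The higher were Sycp1, Sycp3, Rad21l, Mei1, Stra8, Dazl, Sohlh1, Tex19.1, Brdt, Taf7l and Spesp1, and the lower were Syce2, Stag3, Meiob and Tex14. Leaving out PGCLC replicate 1 gave a total of 4, PGCLC replicate 2 gave 7, TKO replicate 1 gave 9 and TKO replicate 2 gave 6. Of the 8 early germ cell markers 5 were lower and 0 higher in TKO, with a sum of 5464 and 7399 against 17228 and 14492, and of 5 endoderm markers 3 were higher and 0 lower. Sums of the neural and mesoderm markers were above those of wild-type PGCLCs as well. The neural sum was 1730 and 854 in TKO against 471 and 401, and the mesoderm sum 225 and 178 against 59.8 and 111. The part of these markers in the members' difference was not tested. At day 2 with cytokines the TKO aggregates had 8 higher and 8 lower (10.4% and 9.49% of all genes), with Dazl, Sohlh2, Tex14 and Stag3 among the lower and Tex19.1, Taf7l and Sycp3 among the higher. That total of 16 was 7 and 10 without PGCLC replicates 1 and 2 and 10 without TKO replicate 1.

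Other genes of the meiotic pathway were counted in the same way. Of 32 further genes for recombination, synapsis and telomere attachment, 29 were found and 27 tested. In day 6 aggregates without cytokines 21 of the 27 were higher and 0 lower in TKO (28.5% and 26.9% of all genes). From wild-type EpiLCs to day 6 without cytokines 20 were lower and 1 higher (29% and 31.7% of all genes). The medians were 1.95 and −2.17, against 4.30 and −3.85 for the members. Of 14 mitotic relatives of the members, such as the cohesin subunit Smc1a and the kinase Aurkb, 10 were higher and 2 lower in TKO at day 6 without cytokines, so that the share called higher was also above the 28.5% of all genes (26.9% were lower), with a median log2 fold change of 0.73 against 4.30 for the members. Over all libraries 8 spermatid markers summed to 0 to 19.04 and 7 oocyte markers to 3.90 to 75.5 normalised counts. The 5 genes listed as spermatogonial markers were Zbtb16, Gfra1, Id4, Nanos2 and Ret. They summed to 5633 and 2347 in wild-type and to 371 and 276 in TKO aggregates at day 6 without cytokines, where all 4 tested were lower in TKO. In wild-type PGCLCs they summed to 172 and 254. Their sum was highest in the wild-type aggregates with the highest neural sum (23117 and 24321), so it was not read as a germ cell signal. Of 16 genes of silencing factors, 11 were lower and 1 higher in wild-type cells from EpiLCs to day 6 without cytokines (29% and 31.7% of all genes). In TKO cells 10 were lower and 1 higher (12.3% and 15.7% of all genes). The DNA methyltransferase gene Dnmt3b had 42663 and 48315 in wild-type EpiLCs and 267 and 337 in wild-type day 6 aggregates without cytokines, and 18018 and 16870.4 and 1611 and 2269 in the corresponding TKO cells.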

How the data were processed

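Counts per gene for 18 libraries were deposited by the authors as a table of unnormalised read counts. Per the submitters' notes and the study's methods, reads from a strand-keeping kit were trimmed (Trim Galore 0.5.0, cutadapt 1.16), aligned to mm10 (STAR 2.7.1a) and assigned to refGene annotation with featureCounts (Subread 1.5.2), ignoring strand and leaving out reads with several alignments or features. A further 33 lines of the table named no gene value and were dropped. Counts were filtered and tested in edgeR 4.0.16 (R 4.3.3, limma 3.58.1) with TMM scaling and a single model of 9 condition means, tested on simulated data. The simulation gave all genes and conditions the same spread and set changes only in genes with higher counts. It therefore does not cover members with low counts or conditions of unequal spread. SEs were derived from the F statistic. Levels used DESeq2 1.42.0 size factors. Many comparisons share control libraries. The 41 members and the other gene lists were chosen with earlier results of these data known, and the comparisons of day 2 wild-type and day 6 TKO aggregates with their EpiLCs and of genotype by time to day 6 were added after the data were seen. By rule, all 41 members are named, with every library's value where a member leads its role or passed a genotype comparison and by range otherwise. Alternatives were other scaling, no filter, a log2 limit of 2, DESeq2's test, fits of only the libraries compared, a replicate block and leaving out each library. Samples were grouped by their labels.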

Additional observations from a re-analysis of the deposited data

Results flagged for a closer look

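The change from EpiLCs to aggregates without cytokines differed between the genotypes by an interaction test (edgeR's quasi-likelihood test, Benjamini-Hochberg adjusted), for 20 members at day 2 and 30 at day 6. At day 2 the interaction, the TKO change minus the wild-type change on the log2 scale, was largest for Taf7l at 8.75, a fitted value against a wild-type group at 0 that is no bound. It was 5.42 for Stra8, 4.90 for Spesp1, 4.26 for Syce1, 4.25 for Dazl and 4.11 for Sohlh2. It was 3.97 for Tex19.1, 3.97 for Syce3, 3.69 for Hormad2, 3.59 for Tex14, 3.55 for Hormad1 and 3.46 for Meioc. It was 3.17 for Sycp1, 3.17 for Aurkc, 2.88 for Sycp2, 2.50 for Rec114 and 2.46 for Tex11. The smallest called values were 2.08 for Stag3, 1.84 for Sycp3 and 1.37 for Dmc1. The effect of cytokines at day 6 differed between the genotypes for 28 members by the same kind of test, with sorted cells on the wild-type side only, so that sorting and genotype cannot be told apart there.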

How the results depend on the processing

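With a log2 fold change beyond 2 also required, the called members were 3 (10 without that limit) for TKO against wild-type EpiLCs, 9 (15) for TKO against wild-type with cytokines at day 6, 8 (16) for wild-type PGCLCs against EpiLCs, and 6 (10), 4 (9) and 5 (13) for TKO day 2 with, day 2 without and day 6 without cytokines against TKO EpiLCs. Between days 2 and 6 in TKO without cytokines, 3 became 5 with no filter, 6 with DESeq2 and 11 with only the libraries compared. For cytokines in TKO at day 2, 0 became 4 with library size alone, 1 with no filter and 8 with only the libraries compared, and at day 6 1, 3 and 5, with 2 by DESeq2. The cause was not tested. Leaving out each library gave 2 to 9 for EpiLCs, 4 to 9 for genotype with cytokines at day 6, 5 to 8 for TKO day 2 with cytokines against EpiLCs (6 without TKO EpiLC replicate 2, 5 without TKO day 2 replicate 1), 3 to 4 and 0 to 2 for TKO day 6 against day 2 with and without cytokines (3 without day 2 replicate 1 with cytokines), 7 to 12 for TKO day 2 with cytokines against wild-type PGCLCs (7 and 10 without PGCLC replicates 1 and 2, 10 without TKO replicate 1) and 8 to 12 for TKO day 6 without cytokines against EpiLCs (8 without either day 6 replicate). A lone library was taken to vary like the other groups. Of 3506 values of called members under alternatives, 3201 stayed called, 305 lost the call and 0 reversed. With the replicate number as a block, 28 and 35 members were called between genotypes without cytokines at days 2 and 6, and no count moved by over 1.5 times. Same-numbered libraries of 36 pairs of groups had correlations of deviations from −0.156 to 0.182. These gave no clear sign that the numbers pair the libraries, but cannot exclude a shared batch or culture. Levels near 3 counts per library limit Spo11, Tex12, Figla and Sohlh1.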
